A study of Mus musculus with 6 samples.

Results

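The genes described here mark the macrophages of skin: Csf1r, Cd68, C1qa, C1qb, C1qc, Mrc1, Itgam, Laptm5, Fcer1g and Tyrobp. They were taken by name, as every probe set that the platform annotation of the array gives to one of these symbols alone. That gave 18 probe sets for the 10 genes, of 45037 probe sets tested and 18193 named genes on the array. The series compared 3 back skins from embryos without Fzd6 (Fzd6-/-, called knockout) with 3 back skins from embryos with a single intact copy (Fzd6+/-, called control). All 6 came from embryos at E15.5 on a C57BL6/129 mixed background, so the control skins also carried a mutant allele and no wild-type skin was compared. Total RNA of whole dissected skin was hybridised to Affymetrix arrays, one per sample, and the labels call the samples biological replicates without saying whether each was 1 embryo. Fzd6 encodes Frizzled 6, a receptor of planar cell polarity that aligns hair follicles along the body.

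Macrophages reach embryonic skin from the yolk sac and fetal liver and live there by signals through the CSF1 receptor, the product of Csf1r, whose ligands are CSF1 and IL-34. They clear dead cells and debris, with CD68 in their lysosomes, the mannose receptor (Mrc1) as an uptake receptor and the integrin CD11b (Itgam) for adhesion and complement-coated targets. They are a main source of C1q, the recognition molecule of the classical complement pathway, which is built from the products of C1qa, C1qb and C1qc. Fcer1g and Tyrobp encode small adaptors whose cytoplasmic activation motif recruits the kinase SYK to immune receptors, and Laptm5 encodes a lysosomal membrane protein of blood cells. The last 3 are shared with other leukocytes, Fcer1g with mast cells above all, Itgam is shared with neutrophils, and Mrc1 is also expressed by lymphatic endothelium. Whole skin was measured, so fewer macrophages and less RNA per macrophage cannot be told apart in any difference below.

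Stretches of sequence before the start sites are shown for 4 of the genes. C1qb, C1qc and Fcer1g were lowest in the same array, control 2, and Mrc1 was not. Itgam, also lowest in control 2, is counted below but not shown. Any link between these sequences and the values of an array was not tested. The core GAGGAA, on either strand (TTCCTC on the other), is the short sequence to which PU.1 binds, the myeloid transcription factor encoded by Spi1. It was searched in the 250 bases before the start site and stands in capitals. No other motif was searched. The sequences are those of RefSeq (GRCm38.p6), written along the strand of the gene. C1qb is from chr4:136886201-136886450 (minus strand), C1qc from chr4:136892915-136893164 (minus strand), Mrc1 from chr2:14229164-14229413 (plus strand) and Fcer1g from chr1:171234350-171234599 (minus strand).
C1qb: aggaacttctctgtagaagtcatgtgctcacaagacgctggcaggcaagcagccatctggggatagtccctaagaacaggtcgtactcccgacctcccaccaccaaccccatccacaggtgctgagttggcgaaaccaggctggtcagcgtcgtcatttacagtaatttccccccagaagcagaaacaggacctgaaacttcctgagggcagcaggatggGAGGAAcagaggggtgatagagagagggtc
C1qc: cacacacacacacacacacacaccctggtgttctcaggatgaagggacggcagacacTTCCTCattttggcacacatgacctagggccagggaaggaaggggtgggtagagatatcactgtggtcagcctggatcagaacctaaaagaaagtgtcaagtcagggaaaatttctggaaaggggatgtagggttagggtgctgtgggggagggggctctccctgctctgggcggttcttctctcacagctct
Mrc1: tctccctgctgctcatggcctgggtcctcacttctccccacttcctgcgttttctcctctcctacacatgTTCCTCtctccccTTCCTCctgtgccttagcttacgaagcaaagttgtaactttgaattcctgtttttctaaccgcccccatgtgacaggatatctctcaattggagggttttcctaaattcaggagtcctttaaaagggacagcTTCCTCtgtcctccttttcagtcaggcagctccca
Fcer1g: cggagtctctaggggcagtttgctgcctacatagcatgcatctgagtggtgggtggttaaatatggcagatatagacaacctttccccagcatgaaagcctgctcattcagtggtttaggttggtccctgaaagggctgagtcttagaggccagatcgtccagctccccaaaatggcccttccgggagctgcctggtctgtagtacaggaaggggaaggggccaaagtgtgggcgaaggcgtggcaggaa

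Of the 10 genes, 7 were counted here, and 6 of these 7 held the core at least once, against 23.3% of 32851 promoters in the same table. Mrc1 held it 3 times and Itgam 2 times, while C1qb, C1qc, Cd68 and Laptm5 held it once each. In C1qb it began 30 bases before the start site, in Laptm5 38 bases and in C1qc 193 bases before. Fcer1g held none in this window. A match of 6 letters is a description of the sequence and not a binding site. Csf1r, C1qa and Tyrobp are not in these counts, and any sequence of Csf1r was left out by its chromosome before counting. In the gene table the C1q genes follow each other on chromosome 4 in the order C1qb, C1qc, C1qa.

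The deposited values are expression levels on a log2 scale after RMA, a method that corrects background, equalises the distributions of the arrays and sums up the probes of each set. Array medians lay between 5.99 and 6.03. The leading principal component held 48.3% of the variance and set knockout 1 apart (−48.4, the others −19.8 to 30.8), and it did not separate the genotypes. Signal from 3 Y-linked genes averaged 3.15 in knockout 3 and 3.12 in control 2, while the other arrays lay at 7.88 to 8.39, so each group held 1 array without Y-linked signal. Fzd6 itself had lower values in its brightest probe set (8.71 to 9.07 in the knockouts against 9.11 to 9.51 in the controls), a difference of −0.44 that did not pass (limma adjusted p = 0.909). The remaining Fzd6 probe sets gave −0.01 and −0.67 (limma adjusted p = 0.994 and 0.864), and none was placed relative to the deleted part. The macrophage marker Adgre1 was above the array medians in all 6 arrays (7.40 to 7.53 in knockout and 7.27 to 7.76 in control skin), as were the 3 C1q genes, Mrc1 and Csf1r. Not all macrophage identity genes were. Tlr4 (5.15 to 5.27 in knockout, 4.95 to 5.24 in control) and Cd33 (4.48 to 4.58 in knockout, 4.33 to 4.61 in control) were below the medians in every array. Cd14, Irf8 and Fcgr1 were above them in some arrays and below in others. Cd207, which defines Langerhans cells, and P2ry12, a gene of microglia, were below the medians in every array (4.58 to 4.78 and 4.18 to 4.93 in knockout, 4.49 to 4.72 and 4.44 to 5.26 in control). Of the other genes listed for microglia and Langerhans cells, Sall1 and Spib were below the medians as well. The rest were above them in every array. Tmem119, listed for microglia, was at 8.84 to 9.0 in knockout and 8.75 to 8.97 in control skin, and its cell of origin was not examined. Epcam, which epithelial cells also express, was at 10.19 to 10.54 in knockout and 10.08 to 10.75 in control skin.

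Whether macrophage genes differ in skin without Fzd6 was asked of each probe set. No macrophage gene passed the test, and knockout and control arrays overlapped in all of them. By limma, with p adjusted after Benjamini and Hochberg across the 45037 probe sets, 0 of the 18 had an adjusted p under 0.05 (smallest adjusted p = 0.909), and this was also true of all probe sets (0.0%). At an unadjusted p under 0.05 there was 1 of the 18, a probe set of Laptm5, where 5.21% of all probe sets reached it. In 0 of the 18 did the 3 knockout arrays stand clear of the 3 control arrays, against 11.6% of all probe sets. Taking the brightest probe set of each gene, 4 genes had a higher and 6 a lower mean in the knockout. Their median difference was −0.054 on the log2 scale, beside 0.007 over all 18193 genes, of which 52.4% had a higher knockout mean. The median size of a difference, whatever its sign, was 0.139 for the 10 genes and 0.084 for all genes. With 3 arrays a group, the exact permutation test cannot go below p = 0.1 for a single gene.

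**Figure D1:**
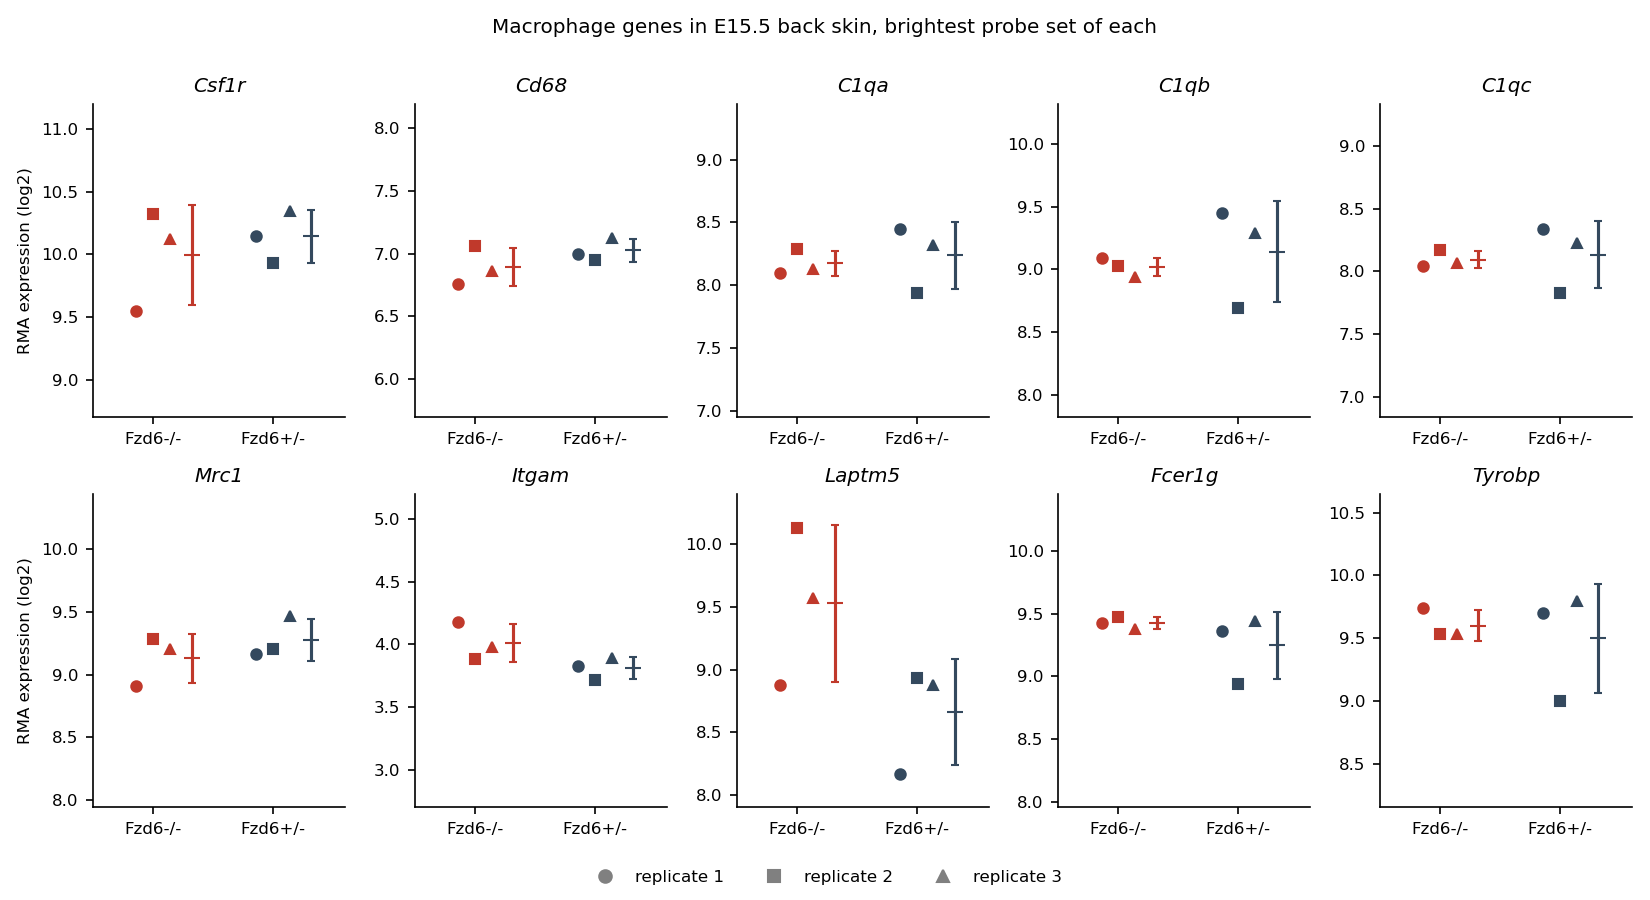
RMA expression (log2, vertical axis, each panel spanning the same range) of the brightest probe set of each of the 10 macrophage genes in the 3 Fzd6-/- arrays (left) and the 3 Fzd6+/- arrays (right). Symbols mark the replicate number and bars give mean ± SD. The groups overlap in every panel, as in Csf1r at 9.55 to 10.32 in the knockout and 9.93 to 10.35 in the control.

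Csf1r, the receptor that macrophages need to survive, was read by 3 probe sets that gave nearly the same result. Its brightest, 1419872_at, measured 9.55, 10.32 and 10.12 in knockouts 1 to 3, against 10.15, 9.93 and 10.35 in controls 1 to 3. Knockout 1 was the lowest array and the other knockouts lay within the control range. The SD over 3 arrays was 0.40 in knockout and 0.21 in control skin. The knockout mean was below the control mean by −0.14 (limma adjusted p = 0.958), and the 95% confidence interval of this difference ran from −0.62 to 0.33. On a linear scale this is 0.905 times the control level, with an interval of 0.651 to 1.26. The dimmer probe sets gave −0.14 in both cases (1419873_s_at, −0.47 to 0.19, and 1423593_a_at, −0.50 to 0.22), and both were also lowest in knockout 1. Without knockout 1 the difference of the brightest was 0.078, so its sign rests on that array.

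The ligands of this receptor differed as little. Csf1 was at 7.04, 7.74 and 7.71 in the knockouts and at 7.36, 7.66 and 7.75 in the controls, which left the knockout mean lower by −0.093 (−0.56 to 0.38, adjusted p = 0.978 in limma). The 3 dimmer probe sets of Csf1 gave −0.038 to 0.066. Il34, the ligand made by keratinocytes, was at 5.92 to 6.16 in knockout and 5.88 to 6.10 in control skin, near the array medians (0.064, −0.17 to 0.30). Csf1 shared with its receptor the low value in knockout 1. The list of 8 genes held these ligands, signalling genes, and Csf2ra and Csf2rb, which belong to another receptor. Of the 8, 5 had higher and 3 lower knockout means, at a median of 0.051, and none passed.

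Cd68 and Mrc1, of the lysosome and of uptake, shared their lowest and highest arrays with Csf1r. Cd68 measured 6.76, 7.06 and 6.86 in the knockouts, against 7.0, 6.95 and 7.13 in the controls. Mrc1 measured 8.91, 9.28 and 9.20 in the knockouts, against 9.16, 9.20 and 9.47 in the controls. In each, knockout 1 was lowest, control 3 highest and knockout 2 the highest of its group. The differences were −0.13 for Cd68 (−0.38 to 0.11, limma adjusted p = 0.921) and −0.15 for Mrc1 (−0.46 to 0.15, limma adjusted p = 0.929). The intervals span 0.769 to 1.08 times the control level for Cd68 and 0.729 to 1.11 times for Mrc1. Without knockout 1 they shrank to −0.065 and −0.040.

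Knockout 1 was also low in genes of vessels and dermis. The endothelial list (8 of 8 measured) had its lowest value in knockout 1 for all 8 genes, and the fibroblast list (8 of 8 measured) for 7, where 23.9% of all genes were lowest in that array. The mean level of the endothelial list was 6.53 to 7.64 in knockout and 7.06 to 7.62 in control skin, and that of the fibroblast list 11.83 to 12.65 in knockout and 12.11 to 12.58 in control skin. The part of these tissues in the values of Csf1r, Cd68 and Mrc1 was not tested.

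The 3 genes of C1q varied together, and their highest and lowest arrays were both controls. C1qa measured 8.10, 8.29 and 8.13 in the knockouts, against 8.45, 7.94 and 8.32 in the controls. C1qc measured 8.04, 8.17 and 8.07 in the knockouts, against 8.34, 7.83 and 8.23 in the controls. In the brightest probe set of C1qb, 1417063_at, the knockouts were at 9.09, 9.03 and 8.94 and the controls at 9.45, 8.69 and 9.29. Control 2 was lowest and control 1 highest for each gene, with all knockout arrays between them. The SDs were 0.10 for C1qa, 0.07 for C1qc and 0.08 for C1qb in the knockout, against 0.26 for C1qa, 0.27 for C1qc and 0.40 for C1qb in the control.

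The differences of the C1q genes were −0.069 for C1qa (−0.39 to 0.26), −0.12 for C1qb (−0.56 to 0.31) and −0.040 for C1qc (−0.36 to 0.28), with limma adjusted p = 0.975, 0.962 and 0.987. The other probe sets of C1qb had the opposite sign, 0.070 (1437726_x_at) and 0.11 (1434366_x_at), and they too were lowest in control 2 and highest in control 1. Leaving out single controls moved all 3 genes. Without control 2 the differences were −0.216 for C1qa, −0.350 for C1qb and −0.191 for C1qc, and without control 1 they were 0.037, 0.027 and 0.064.

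Partners of C1q in the complement cascade gave no call either. Of 10 genes listed 7 were measured, 4 with higher and 3 with lower knockout means (median 0.017). Serping1, the inhibitor of the C1 proteases, was at 8.12 ± 0.28 in knockout and 8.38 ± 0.25 in control skin (SD, n = 3 each, here and below), or −0.26 (−0.67 to 0.15, adjusted p = 0.917 in limma). The anaphylatoxin receptors C5ar1 (0.10) and C3ar1 (−0.062) had the next smallest p of the list.

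**Figure D2:**
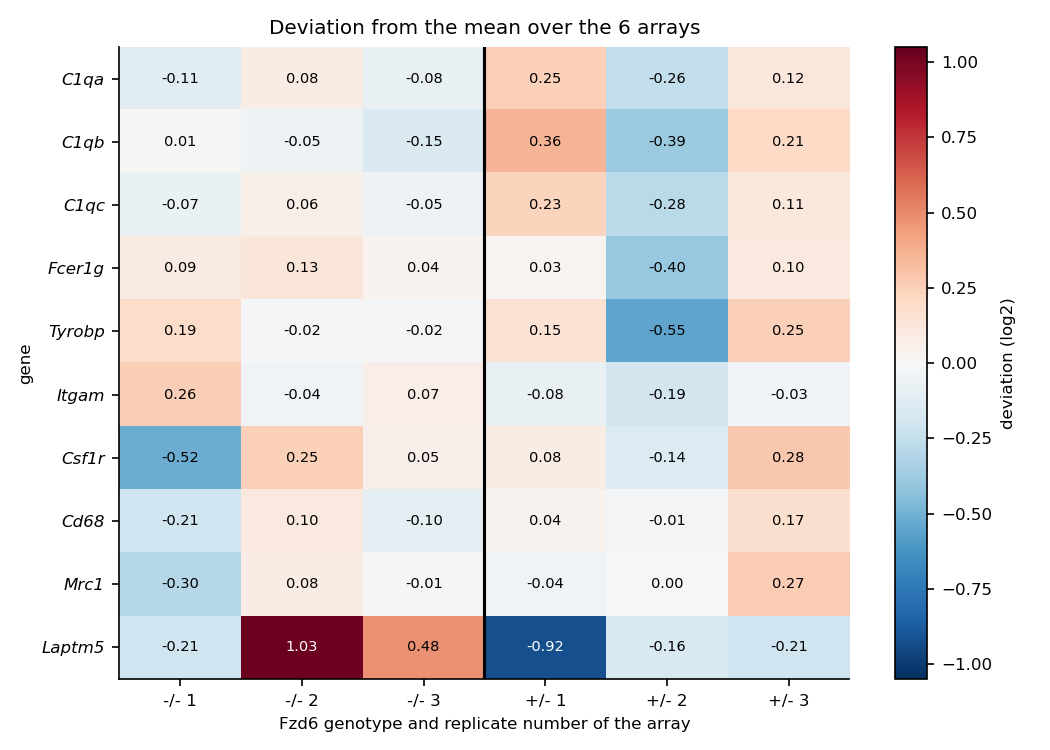
Deviation (log2, colour) of each macrophage gene's brightest probe set from its own mean over the 6 arrays, with genes down the page and arrays across, the 3 Fzd6-/- arrays left of the line and the 3 Fzd6+/- arrays right of it. C1qa, C1qb, C1qc, Fcer1g and Tyrobp are lowest in control 2 (−0.26 to −0.55), and Csf1r, Cd68 and Mrc1 are lowest in knockout 1 (−0.21 to −0.52).

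The adaptors Fcer1g and Tyrobp also had their lowest value in control 2. Fcer1g, the common gamma chain of Fc receptors, measured 9.43, 9.47 and 9.38 in the knockouts, against 9.36, 8.94 and 9.44 in the controls. Tyrobp (DAP12), the partner of TREM2 and other receptors, measured 9.74, 9.53 and 9.53 in the knockouts, against 9.70, 9.0 and 9.80 in the controls. In both genes the knockouts lay close to controls 1 and 3, and control 2 stood below all 5 others. The differences were 0.18 for Fcer1g (−0.14 to 0.49, limma adjusted p = 0.919) and 0.099 for Tyrobp (−0.38 to 0.58, limma adjusted p = 0.976). Without control 2 they were 0.024 and −0.152, so the sign for Tyrobp turned.

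Fcer1g is also a subunit of the high-affinity IgE receptor of mast cells, whose genes were higher in the knockout arrays without passing. All 10 mast cell genes measured had a higher knockout mean (median difference 0.429), 6 of them at an unadjusted p under 0.05 (2.58% of all probe sets were higher at that level) and 0 at an adjusted p under 0.05. The mean level of the list was 8.41 to 8.62 in knockout and 7.82 to 8.41 in control skin. Cma1, the mast cell chymase and the gene of smallest p in the list, measured 11.61 ± 0.10 in knockout and 10.67 ± 0.45 in control skin. The smallest differences of the list were those of Fcer1a (0.058, −0.21 to 0.32) and Ms4a2 (0.195, −0.45 to 0.84). Fcer1a was below the array medians, at 3.20 to 3.54 in knockout and 3.32 to 3.46 in control skin. Among mast cell genes 4 of 10 were lowest in control 2. The part of mast cells in the values of Fcer1g, Tyrobp and Laptm5 was not tested.

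Receptors and kinases that work with these adaptors were examined as a list of 12 genes, 10 of them measured. Of these, 8 had higher and 2 lower knockout means, at a median of 0.080, and none passed. Btk, a kinase downstream of the adaptors, differed by 0.26 (−0.059 to 0.57), the inhibitory Fc receptor Fcgr2b by 0.17 (−0.096 to 0.43) and Vav1 by 0.11 (−0.091 to 0.31). Trem2 was at 6.37 to 6.60 in knockout and 6.29 to 6.57 in control skin, a difference of 0.007 (−0.24 to 0.26), and its dimmer probe set gave 0.17 (−0.11 to 0.45).

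Itgam was read well below the array medians, where RMA compresses differences. It measured 4.18, 3.88 and 3.98 in the knockouts, against 3.83, 3.72 and 3.89 in the controls. Control 3 lay just above knockout 2, so the groups overlapped. The difference of 0.20 (−0.038 to 0.44, limma adjusted p = 0.909) had the same sign within each replicate number, at 0.35, 0.15 and 0.10. Itgb2, the beta chain that pairs with it, was also below the medians, at 4.85, 5.28 and 5.24 in the knockouts and 4.88, 4.95 and 5.23 in the controls (0.10, −0.24 to 0.44). Detection calls were not made here, so levels in this range need not be transcript.

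Laptm5 was read by 5 probe sets, and they disagreed on the size of the difference. The brightest, 1447742_at, measured 8.88, 10.13 and 9.57 in knockouts 1 to 3, against 8.17, 8.93 and 8.88 in controls 1 to 3. Only knockout 1 reached into the control range. The mean was 9.52 ± 0.62 in knockout and 8.66 ± 0.43 in control skin, a difference of 0.86 (0.097 to 1.63), or 1.82 times the control level. It did not pass (limma adjusted p = 0.909, unadjusted limma p = 0.032, exact permutation p = 0.3). Within replicate numbers 1 to 3 the knockout exceeded the control by 0.71, 1.19 and 0.69. With the replicate number as a block the unadjusted limma p was 0.000111 and the adjusted p = 0.335, so the call did not change. In that blocked fit 0 of the 18 passed, as against 3 probe sets of the whole array (0.00666%).

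The other Laptm5 probe sets did not share this difference in size. 1436905_x_at measured 7.33, 8.45 and 8.45 in the knockouts, against 7.22, 7.98 and 8.46 in the controls (0.19, −0.72 to 1.10). 1426025_s_at measured 7.34, 7.91 and 8.04 in the knockouts, against 7.51, 7.79 and 8.11 in the controls (−0.040, −0.54 to 0.46). The remaining 2 differed by 0.23 (1417721_s_at, −0.26 to 0.72) and 0.20 (1459841_x_at, −0.12 to 0.51). What the 5 had in common was a low value in the arrays numbered 1, with control 1 lowest in 4 of them and knockout 1 lowest in the fifth. Which part of the transcript each probe set reads was not examined, so a gene-wide difference of Laptm5 is not shown.

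**Figure D3:**
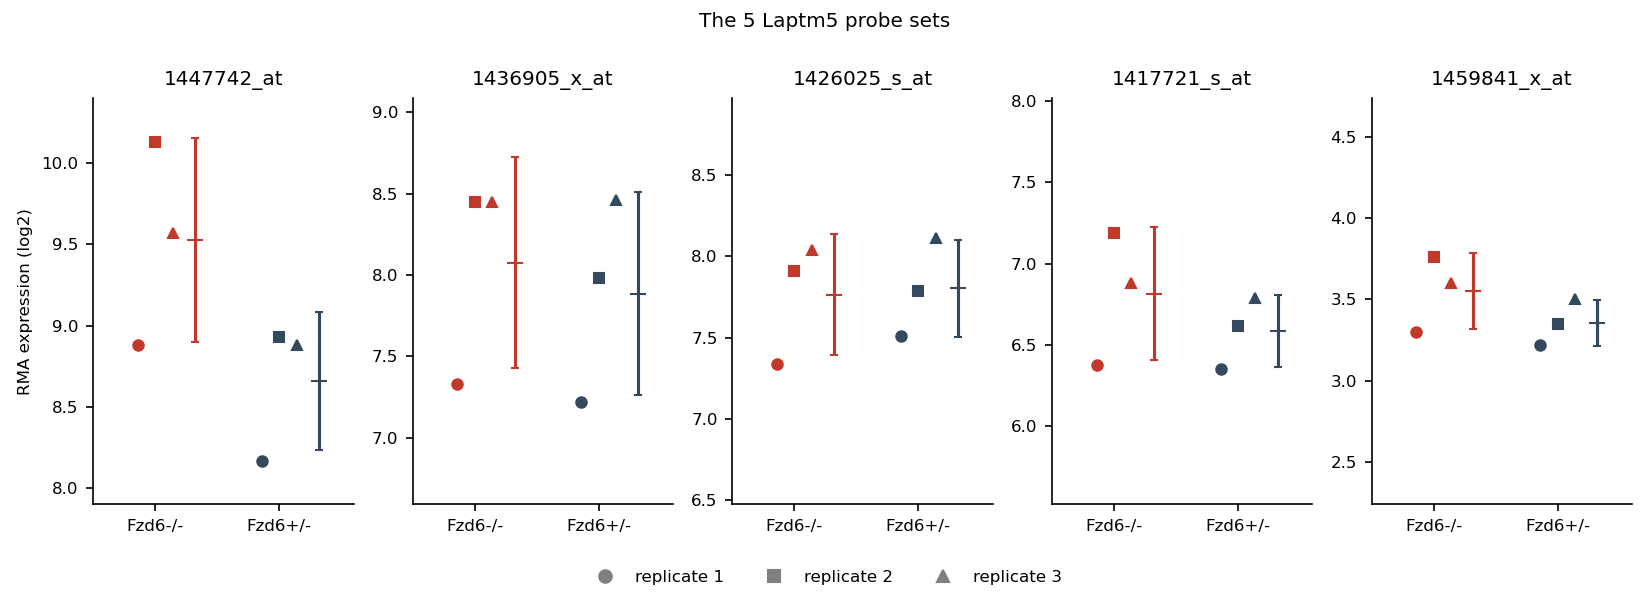
RMA expression (log2, vertical axis, each panel spanning the same range) of the 5 Laptm5 probe sets, brightest first, in the 3 Fzd6-/- arrays (left) and the 3 Fzd6+/- arrays (right), with mean ± SD. The leftmost differs by 0.86 between the groups and the others by −0.040 to 0.23.

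**Figure D4:**
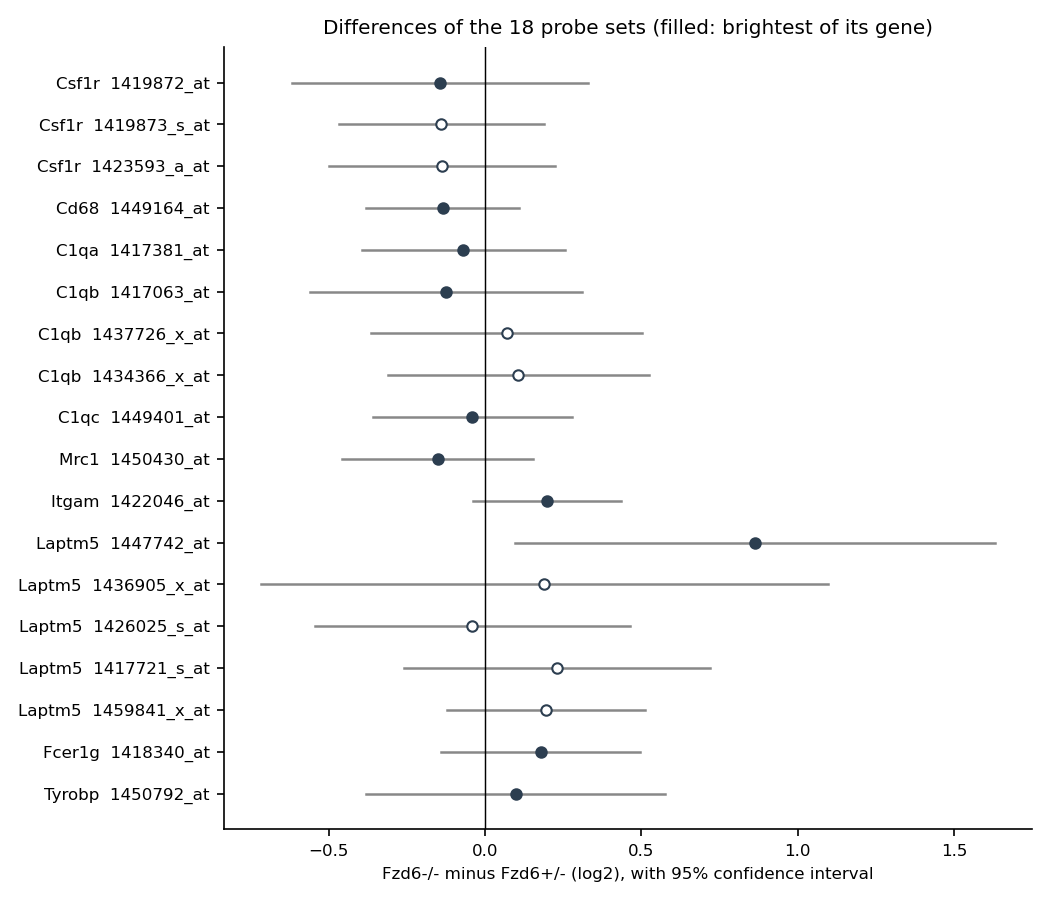
Difference between Fzd6-/- and Fzd6+/- skin (log2, horizontal axis) with its 95% confidence interval from limma for each of the 18 probe sets, filled where the probe set is the brightest of its gene. The interval leaves out 0 for a single probe set, 1447742_at of Laptm5 (0.097 to 1.63).

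Across the 10 genes the arrays divided them in 2 ways, a grouping made after the values were seen and described without a test. In control 2 lay the lowest value of 6 genes, C1qa, C1qb, C1qc, Fcer1g, Tyrobp and Itgam, where 23.4% of all genes were lowest in that array. In knockout 1 lay the lowest value of Csf1r, Cd68 and Mrc1. Averaged over C1qa, C1qb, C1qc, Fcer1g and Tyrobp, the deviation from the genes' own means was 0.02, 0.04 and −0.05 in knockouts 1 to 3 and 0.20, −0.38 and 0.16 in controls 1 to 3. Averaged over Csf1r, Cd68 and Mrc1 it was −0.34, 0.14 and −0.02 in the knockouts and 0.02, −0.05 and 0.24 in the controls. Itgam was not in the first of these averages, and Laptm5 was in neither. The sets were formed by their lowest array, so the wide spread within 1 genotype in each set was built in. Only Itgam and Laptm5 had a difference of the same sign in all 3 replicate numbers.

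Control 2 was 1 of the 2 arrays without Y-linked signal, and the other was knockout 3. Over C1qa, C1qb, C1qc, Fcer1g and Tyrobp the mean deviation was −0.05 in knockout 3, the lowest of the knockouts, and −0.38 in control 2. The genes did not share this order of the knockouts. C1qb (−0.15) and Fcer1g (0.04) were lowest of the knockouts in knockout 3. C1qa and C1qc were lower in knockout 1 (−0.11 and −0.07) than in knockout 3 (−0.08 and −0.05), and Tyrobp was at −0.02 in both knockouts 2 and 3. The part of embryo sex in the low values of control 2 was not tested. With the mean of the Y-linked genes as a covariate the median difference of the 10 genes was −0.057. Some other leukocyte genes were lowest in control 2 as well, as were 23.4% of all genes. Of the 13 measured macrophage identity genes 7 were lowest there, of 10 pan-leukocyte genes 6, and of 10 lysosome and oxidase genes 4. Of 11 scavenger and clearance receptors it was 4, and of 10 receptors and kinases of the adaptors 3. The pan-leukocyte gene Coro1a measured 9.54, 9.69 and 9.48 in the knockouts, against 9.56, 9.0 and 9.65 in the controls. Cd48, another, measured 6.07, 5.87 and 5.91 in the knockouts, against 5.95, 5.24 and 6.15 in the controls. From the same list Ptprc and Lcp2 were lowest in control 1 instead, and Was and Lcp1 in knockout 1.

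Likeness between genes was measured as the root mean square distance of their centred profiles over the 6 arrays. C1qa and C1qc lay 0.025 apart and were each other's nearest gene among 18192, while the median gene lay 0.206 from C1qa. C1qc was the 31st nearest gene to C1qb and C1qa the 42nd. Cd68 and Mrc1 lay 0.074 apart, and Laptm5 was at least 0.596 from every other member. Csf1r lay 0.138 from Mrc1 and 0.169 from Cd68, but Cd68 was nearer to C1qa (0.142) and C1qc (0.152) than to Csf1r. Beyond the members, the genes nearest to Tyrobp were Ms4a6b (0.033), Lst1 (0.037) and Cd48 (0.052). Those nearest to Csf1r were Angptl4 (0.079), Rac3 (0.086) and Pld4 (0.098), those nearest to C1qa after C1qc were Ndufb4 (0.043) and Clec7a (0.045), and those nearest to Mrc1 were S1pr2 (0.030), 1700086O06Rik (0.037) and Fam149a (0.041). The mean profile of all 10 was nearest to Prg3 (0.023), Sult1c2 (0.032), AI593442 (0.035), Myb (0.036), Nol4 (0.037), Fcgrt (0.041), Pik3cg (0.043) and A330023F24Rik (0.045).

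Further genes of macrophage biology were read from lists of their other functions. Over 16 lists with 150 genes, 139 were measured and 0 passed limma's adjusted p of 0.05. Of 13 genes of macrophage identity and lineage, 4 had higher and 9 lower knockout means (median −0.080). Spi1, which encodes PU.1, measured 6.76, 7.0 and 6.80 in the knockouts, against 6.52, 6.58 and 6.75 in the controls. Its 3 knockout values lay just above all controls, as groups stand clear in 11.6% of all probe sets, and the difference of 0.23 did not pass (−0.0050 to 0.47, limma adjusted p = 0.909). Tlr4, the endotoxin receptor, differed by 0.10 (−0.12 to 0.33) and Ms4a7 by −0.17 (−0.56 to 0.22). Of 10 pan-leukocyte genes 9 had higher knockout means (median 0.124), led by the GTPase Rac2 (0.33, −0.11 to 0.76), with Coro1a at 0.17 and Cd48 at 0.17.

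Among 11 scavenger and clearance receptors 6 had higher and 5 lower knockout means, at a median of 0.034. Marco, a scavenger receptor of a subset of macrophages, measured 5.15, 4.92 and 5.23 in the knockouts, against 4.83, 4.55 and 4.76 in the controls. Axl, a receptor for dying cells, measured 8.67, 8.96 and 8.73 in the knockouts, against 9.13, 9.10 and 9.05 in the controls. In both the groups stood clear of each other (11.6% of all probe sets do), in opposite directions, with differences of 0.39 (0.12 to 0.66) and −0.31 (−0.53 to −0.079), and neither passed (limma adjusted p = 0.909 each). A dimmer probe set of each gave −0.007 for Marco (−0.21 to 0.20) and 0.13 for Axl (−0.061 to 0.32). These had means of 4.06 and 4.84, below the array medians, where RMA compresses differences. They therefore cannot decide whether the differences hold for the whole gene. The brighter Marco probe set was below the medians as well. Cd163, the haemoglobin scavenger receptor, was at 5.10 to 5.22 in the knockouts and at 4.09, 4.36 and 5.31 in the controls (0.56, −0.093 to 1.22). Of 10 lysosome and oxidase genes 3 had higher and 7 lower means (median −0.055), with Ncf4 (0.16), Ctsb (−0.16) and Lgmn (−0.13) at the smallest p.

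Of 5 genes of integrin partners 4 had higher knockout means (median 0.076). Of 10 chemokines and receptors of monocyte recruitment, 4 had higher and 6 lower means (median −0.024). Ccl6 measured 7.35, 6.12 and 6.10 in the knockouts, against 5.84, 5.42 and 6.28 in the controls, with the highest value in knockout 1 and a difference of 0.68 (−0.17 to 1.52). The monocyte receptor Ccr2 differed by 0.12 and its ligand Ccl2 by −0.11. Microglia and Langerhans cell genes, 6 in all, were divided evenly (median 0.010).

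**Figure D5:**
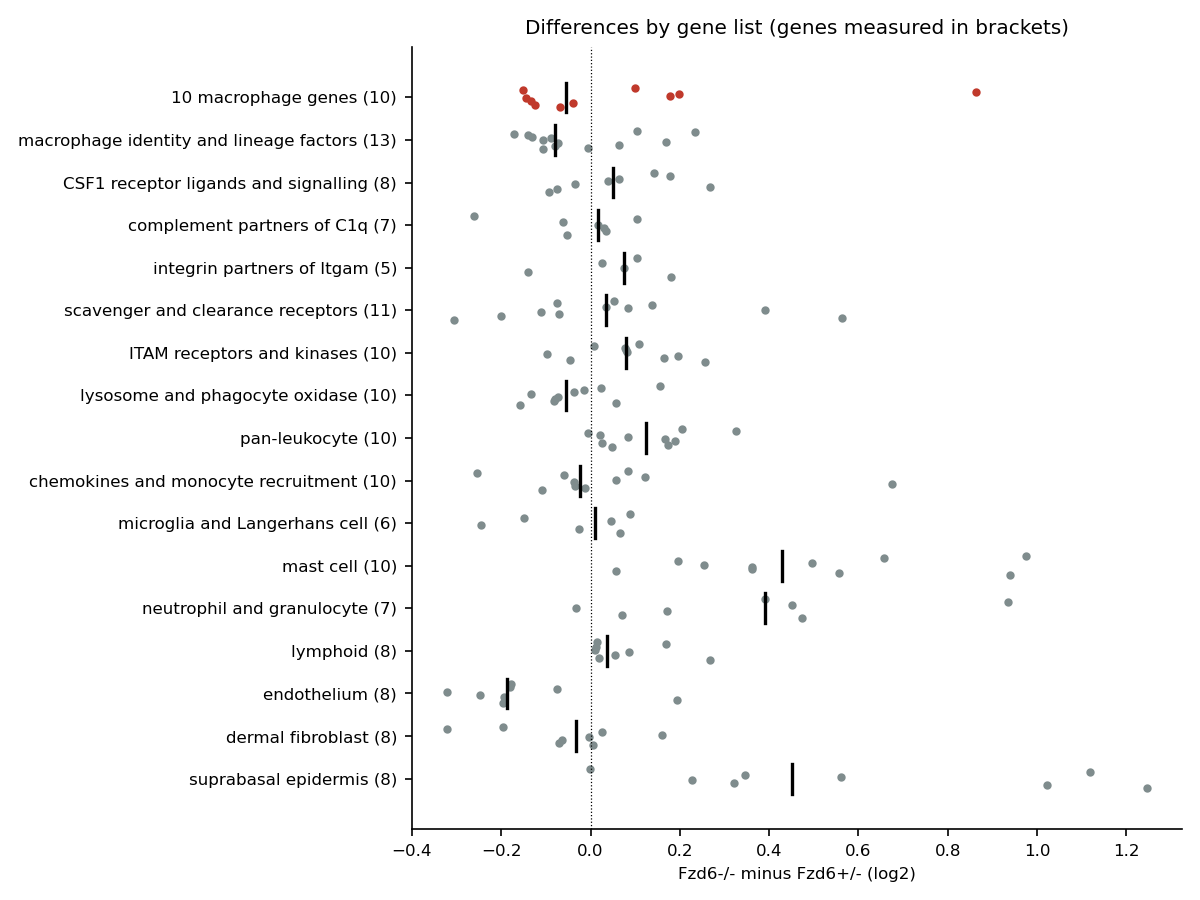
Difference between Fzd6-/- and Fzd6+/- skin (log2, horizontal axis) of each measured gene (point, brightest probe set) in the 10 macrophage genes (red) and in 16 lists of related functions and other skin cells, with a bar at the median of each list. The macrophage and pan-leukocyte lists have medians between −0.080 and 0.124. The highest medians are those of suprabasal epidermis (0.452), mast cells (0.429) and neutrophils and granulocytes (0.391), and the lowest is that of endothelium (−0.186).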

How the data were processed

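At E15.5, RNA of 6 embryonic back skins (3 Fzd6-/-, 3 Fzd6+/-) was hybridised to Affymetrix MOE430 2.0 arrays. The deposited log2 values were made by the authors with RMA, per the submitters' processing notes, and the log base, not given in the sources used here, was read from their range (2.39 to 14.8). RMA hides a shift shared by most genes and compresses differences of dim probe sets. Of 45101 rows, 64 AFFX controls were left out, and no filter on low values was used. Of the rest 34945 probe sets had 1 symbol, 932 several and 9160 none, and symbols came from the platform annotation, updated through Entrez identifiers to GRCm38.p6.

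Knockout minus control was estimated by a two-sided moderated test without covariates (limma 3.58.1, R 4.3.3, 3.43 prior and 4 residual degrees of freedom), with Benjamini-Hochberg adjustment across 45037 probe sets, a threshold of 0.05 and 95% intervals from the fit. The scripts were tested on simulated data. Single probe sets were also given an exact permutation test. A gene's value was that of the probe set with the highest mean. The members and lists were chosen with earlier results of these data known. Named were all members, the ligands and partners Csf1, Il34, Itgb2 and Trem2, and the genes nearest in profile. Further genes were drawn from the 3 of smallest p in each list, not all of which are shown. Adgre1, Cd33, Cd14, Irf8, Fcgr1, Cd207, Sall1, Epcam, Fcer1a, Ms4a2 and the leukocyte genes shown for control 2 were named after their values were seen.

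Arrays of both groups carry numbers 1 to 3. Deviations from group means correlated at 0.568, 0.359 and 0.124 for equal numbers, all above 0.1. The replicate number was therefore used as a block in an alternative fit, and the main fit had no block. These correlations do not show that the arrays are pairs, and the labels do not say what the numbers stand for. Nothing says whether the samples came from separate litters, so p-values measure only the spread between these samples. Alternatives were a variance trend, only probe sets above the median, centred arrays, repeated quantile normalization, array weights, the replicate block, a Y-linked covariate, arrays left out and other probe set choices. Summaries and plots used Python 3.11.15 and matplotlib 3.10.9.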

Additional observations from a re-analysis of the deposited data

How the results depend on the processing

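No member probe set passed limma's adjusted threshold under any of the 14 alternative fits (lowest adjusted p = 0.335, Laptm5 with the replicate block). The block left the differences as they were and changed no call of a member, while the number of probe sets called over the whole array was 3 with it (0.00666%) and 0 without. Of 250 recomputed differences of member probe sets, 232 kept their sign and 18 did not. Without single arrays the count of genes with a higher knockout mean, 4 of 10 with all arrays, ran from 3 to 7, and it was 7 without both arrays numbered 1. Their median difference ran from −0.181 (without control 2) to 0.051 (without control 1). The differences whose sign turned without a single array ran from −0.304 to 0.078 (Csf1r 1419872_at), −0.269 to 0.020 (Csf1r 1423593_a_at), −0.216 to 0.037 (C1qa), −0.350 to 0.027 (C1qb 1417063_at), −0.118 to 0.274 (C1qb 1437726_x_at), −0.067 to 0.308 (C1qb 1434366_x_at), −0.191 to 0.064 (C1qc), −0.152 to 0.250 (Tyrobp), −0.188 to 0.172 (Laptm5 1426025_s_at) and −0.146 to 0.561 (Laptm5 1436905_x_at). The range for Csf1r 1419873_s_at was −0.244 to −0.009, with its sign kept. Without both arrays numbered 1 the sign turned for C1qa (0.073), C1qc (0.090), Csf1r (0.080 in 1419872_at and 0.025 in 1419873_s_at) and Laptm5 1426025_s_at (0.024), the last also with array weights (0.008). The cause was not tested. The brightest Laptm5 probe set stayed at 0.563 to 1.187 without single arrays. The number of arrays, 3 a group, limits the precision, and the filter on probe sets above the median removed Itgam and the dimmest Laptm5 probe set.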

Other observations

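Genes of other leukocytes were read beside the macrophage genes. Of 7 measured neutrophil and granulocyte genes 6 had a higher knockout mean (median difference 0.391), 1 of them at an unadjusted limma p under 0.05 (2.58% of all probe sets were higher at that level) and 0 at an adjusted p under 0.05. In control 2 lay the lowest value of 6 of the 7, as of 23.4% of all genes. Ngp, a neutrophil granule protein, measured 5.79, 5.67 and 5.31 in the knockouts, against 5.40, 4.92 and 5.10 in the controls, a difference of 0.45 (0.073 to 0.83). Camp, the cathelicidin, measured 6.34, 5.92 and 5.56 in the knockouts, against 5.87, 4.92 and 5.60 in the controls. Of 8 lymphoid genes measured, all had a higher knockout mean, at a median of 0.036, with Cd2, a gene of T cells, at 4.23, 3.99 and 4.14 in the knockouts and 3.89, 3.86 and 3.81 in the controls, below the array medians throughout. Of 8 suprabasal epidermis genes 7 had a higher knockout mean, as had 52.4% of all genes, each of the 7 at an unadjusted limma p under 0.05 (2.58% of all probe sets) and 0 at an adjusted p under 0.05. The mean level of the list was 11.29 to 11.89 in the knockouts and 10.82 to 11.09 in the controls, without overlap, as in 11.6% of single probe sets.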
